A study of Rattus norvegicus with 10 samples.

Results

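The 9 genes described here encode trans-synaptic adhesion molecules: the neurexins Nrxn2 and Nrxn3, the neuroligins Nlgn1, Nlgn2 and Nlgn3, and the leucine-rich repeat transmembrane proteins Lrrtm1, Lrrtm2, Lrrtm3 and Lrrtm4. They were picked by gene symbol from a count table of 17168 genes, by a rule that uses no measured value but was set with earlier results of these data known, and 9 of 9 were found. Lrrtm1 was matched without regard to letter case, because the table and the rat RefSeq annotation both write it LRRTM1. All 9 passed the filter on low counts that left 12355 genes for testing.

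The tissue was the left hippocampus of male rats of the TgF344-AD line, a transgenic rat model of Alzheimer's disease, and 10 rats gave 1 RNA library each. All 10 carried the transgenic AD genotype, and no rats without the transgenes are among these samples. As background, the line carries human transgenes, a mutant APP among them, driven by a prion promoter. The 5 untreated rats ate rodent chow. The 5 ibudilast rats started on ibudilast, a drug that blocks the phosphodiesterases which break down cAMP and cGMP, when 5 months old and were treated for 6 months. Tissue of both groups was taken at 11 months, after perfusion with buffered saline, and snap frozen. The ibudilast samples were also kept in RNAlater-ICE, a transition solution for frozen tissue, and the untreated samples were not, so that treatment and storage cannot be told apart in any difference given here.

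Neurexins sit in the presynaptic membrane and reach across the synaptic cleft to bind several families of postsynaptic partners. Neuroligins and LRRTM proteins are such partners. Neuroligin 1 is known mainly from excitatory synapses, neuroligin 2 from inhibitory synapses and neuroligin 3 from both, while LRRTM proteins act at excitatory synapses and help to hold AMPA receptors there. In the hippocampus these molecules take part in synapse formation and long-term potentiation. Each neurexin gene is spliced into many isoforms that bind different partners. The values below are sums over all isoforms of a gene, so that a change of isoform was not measured.

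With ibudilast, 5 of the 9 genes fell (Nrxn3, Nlgn1, Nlgn3, Lrrtm2 and Lrrtm4), 0 rose and 4 did not pass the test (Nrxn2, Nlgn2, Lrrtm1 and Lrrtm3). The test was edgeR's quasi-likelihood test with Benjamini-Hochberg adjustment over all 12355 genes, and genes with an adjusted p under 0.05 passed. In this comparison 47.1% of all tested genes passed, with 24.3% higher and 22.8% lower, so that a call alone is common. At an unadjusted p under 0.05, 0 members were higher and 6 were lower. The median log2 fold change, ibudilast minus untreated, was −0.76 over the 9 genes and 0.02 over all tested genes. A negative value was found for 9 of 9 members and for 48.4% of all tested genes, and the sign of Lrrtm3 turned when library size alone was used for scaling. The groups did not overlap for 4 members, all lower with ibudilast, and 15.4% of all tested genes were lower without overlap.

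**Figure D1:**
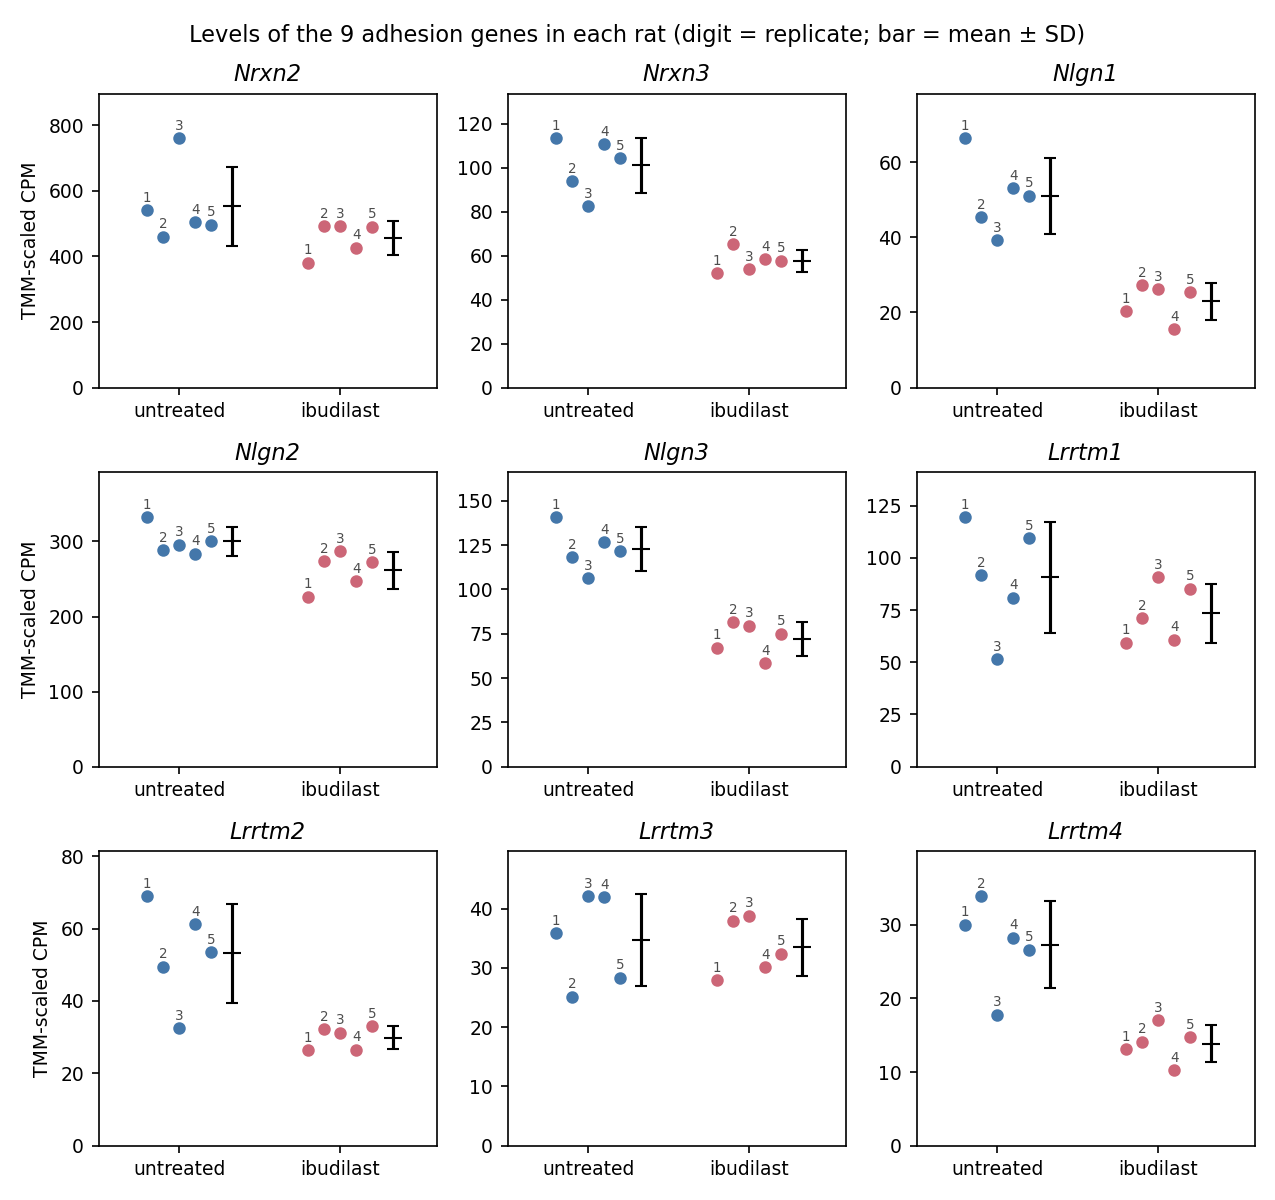
CPM, counts scaled to library size, of each of the 9 genes in each rat, in 1 panel per gene with its own axis; points are rats, numbered by replicate, and bars are group means ± SD. The 5 ibudilast rats lie below all 5 untreated rats for Nrxn3, Nlgn1, Nlgn3 and Lrrtm4, while the groups overlap for the other 5 genes.

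Libraries held 14806807 to 18533520 counts, and single libraries within a group differed in the tissue markers they held. Levels are given as CPM, counts scaled by library size and by TMM factors, which correct for differences in RNA composition between libraries. Summed CPM of 10 pan-neuronal markers ranged from 4963 to 7753 in the untreated rats and from 3647 to 5609 in the ibudilast rats. Of the 10, 5 fell, 0 rose and 5 did not pass, with a median log2 fold change of −0.36. Single values ran from −1.42 for the vesicle protein gene Syt1 to 0.125 for Nefm, which did not pass. Of 10 excitatory neuron markers 2 fell and 0 rose, with sums of 4665 to 6362 against 1337 to 5335, the lowest in ibudilast rat 4. Of 10 inhibitory neuron markers 2 fell and 1 rose, with sums of 352 to 616 against 375 to 530. Oligodendrocyte markers rose for 7 of 13 and fell for 0, with sums of 7956 to 15535 against 16219 to 19338, the lowest in untreated rat 3. Microglia markers fell for 5 of 10 (629 to 1178 against 517 to 622), endothelial and mural markers for 5 of 10 (362 to 659 against 196 to 409), and astrocyte markers for 4 of 9 (7022 to 11073 against 7567 to 9191). Oligodendrocyte precursor markers fell for 2 of 6 (438 to 631 against 357 to 512). Choroid plexus markers passed for 0 of 6 and ran from 24.8 to 7804 against 71.8 to 7173. No marker was at 0 in every library. These counts stand beside 22.8% of all tested genes lower and 24.3% higher. The part of these marker differences in the results on adhesion genes was not tested, and in bulk tissue fewer cells of a type and less RNA per cell cannot be told apart.

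Of the presynaptic genes, mean CPM of Nrxn3 fell by 43.1% and Nrxn2 did not pass the test. Nrxn3 stood at 113, 93.9, 82.6, 111 and 104 CPM in untreated rats 1 to 5 and at 52.1, 65.2, 53.8, 58.4 and 57.7 CPM in ibudilast rats 1 to 5. Every ibudilast rat lay below every untreated rat, with the highest ibudilast rat at 65.2 CPM and the lowest untreated rat at 82.6 CPM. Group means were 101 ± 12.7 and 57.4 ± 5.06 CPM (SD, n = 5 each). The log2 fold change was −0.81 (SE 0.10, 95% interval −1.03 to −0.60, adjusted p = 0.000118 by edgeR's quasi-likelihood test).

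Nrxn2 was read at 541, 460, 759, 504 and 497 CPM in the untreated rats and at 380, 492, 492, 426 and 490 CPM in the ibudilast rats. Untreated rat 3 stood far above the others, and the groups overlapped. The means were 552 ± 119 and 456 ± 50.9 CPM (SD, n = 5), a log2 fold change of −0.28 (SE 0.14, 95% interval −0.59 to 0.04) that did not pass (adjusted p = 0.140, edgeR's quasi-likelihood test). Without untreated rat 3, the value was −0.16.

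Set against each other within a library, which removes library size and scaling, the ratio of Nrxn3 to Nrxn2 fell. The ratio of their counts also depends on transcript length, so that only its difference between groups is read. The 3 ratios tested in this report were chosen with earlier results of these data known. The adjustment over 3 ratios does not account for that choice. Nrxn3 counts were 20.9, 20.4, 10.9, 22.0 and 21.0% of Nrxn2 counts in the untreated rats, and 13.7, 13.2, 10.9, 13.7 and 11.8% in the ibudilast rats. Untreated rat 3 lay just below the lowest ibudilast rat, and the other 4 untreated rats stood above all ibudilast rats. The mean log2 ratio was −2.44 ± 0.43 and −2.99 ± 0.15 (SD, n = 5), a difference of −0.55 (two-sided exact permutation test over all assignments of 5 of the 10 rats, p = 0.0476, adjusted p = 0.0476 over 3 ratios). This result rests on few rats: without untreated rat 1, 2, 4 or 5 the difference was −0.50, −0.51, −0.49 or −0.50 and the adjusted p 0.0873, and without untreated rat 3 it was −0.74 with an adjusted p of 0.00794 (exact permutation test).

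Among the neuroligins, mean CPM fell by 55.0% for Nlgn1 and fell by 41.1% for Nlgn3, and Nlgn2 did not pass the test. The 3 neuroligin genes are shown by the 250 bases before their RefSeq starts, 5′ to 3′ on the gene's strand, because the genes differed in their response and these stretches differ in base composition. The capitals mark CG pairs, which are sites at which vertebrate DNA can be methylated. Coordinates are of the rat build GRCr8: chr2:110930677-110930926, minus strand, for Nlgn1, chr10:55056579-55056828, minus strand, for Nlgn2, and chrX:70469228-70469477, plus strand, for Nlgn3.
Nlgn1: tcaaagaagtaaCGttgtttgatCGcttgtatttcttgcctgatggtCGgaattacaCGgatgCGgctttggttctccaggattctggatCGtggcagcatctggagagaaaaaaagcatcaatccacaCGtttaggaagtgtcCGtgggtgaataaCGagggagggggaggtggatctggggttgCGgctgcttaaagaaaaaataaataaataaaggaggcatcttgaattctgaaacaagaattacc
Nlgn2: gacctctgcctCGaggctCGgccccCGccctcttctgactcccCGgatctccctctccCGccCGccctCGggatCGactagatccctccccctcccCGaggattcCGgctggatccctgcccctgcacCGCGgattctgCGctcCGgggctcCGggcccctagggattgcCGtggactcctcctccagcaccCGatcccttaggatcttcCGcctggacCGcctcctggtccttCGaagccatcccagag
Nlgn3: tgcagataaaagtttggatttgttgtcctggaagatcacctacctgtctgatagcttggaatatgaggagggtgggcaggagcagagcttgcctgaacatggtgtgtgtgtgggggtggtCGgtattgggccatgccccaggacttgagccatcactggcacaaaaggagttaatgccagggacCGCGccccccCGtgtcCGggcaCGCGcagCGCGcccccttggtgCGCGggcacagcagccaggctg
The stretch before Nlgn1 holds 44.4% G and C and 10 CG pairs, that before Nlgn2 69.2% and 20 pairs, and that before Nlgn3 60% and 11 pairs. Over all RefSeq rat promoters the median was 52%, with 24.8% of promoters below the value of Nlgn1, 90.3% below that of Nlgn2 and 73.0% below that of Nlgn3. Among the LRRTM genes, the same stretch held 42.4% G and C for Lrrtm2 and 47.6% for Lrrtm4, which fell. It held 44.8% for both Lrrtm1 and Lrrtm3, which did not pass. DNA methylation was not measured, and no bearing of base composition on the counts was tested.

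Nlgn1 encodes the neuroligin of excitatory synapses. Its level was 66.3, 45.3, 39.2, 53.0 and 51.1 CPM in the untreated rats and 20.3, 27.3, 26.2, 15.5 and 25.5 CPM in the ibudilast rats. The highest ibudilast rat, at 27.3, lay well below the lowest untreated rat, at 39.2. From 51.0 ± 10.1 to 22.9 ± 4.93 CPM (SD, n = 5), the log2 fold change was −1.15 (SE 0.18, 95% interval −1.54 to −0.76, adjusted p = 0.000476, edgeR's quasi-likelihood test). Of all tested genes, 1.80% had a lower log2 fold change.

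Nlgn3, whose protein is found at excitatory and inhibitory synapses, stood at 141, 118, 107, 127 and 122 CPM in untreated rats and at 67.1, 81.5, 79.5, 58.2 and 75.0 CPM with ibudilast. The groups were again apart, and ibudilast rat 4 was lowest, as for Nlgn1. The means were 123 ± 12.5 and 72.3 ± 9.60 CPM (SD, n = 5), and the log2 fold change was −0.76 (SE 0.11, 95% interval −0.997 to −0.532, adjusted p = 0.000249, edgeR's quasi-likelihood test).

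Nlgn2, the neuroligin of inhibitory synapses, was read at 332, 288, 296, 284 and 300 CPM in untreated rats and at 226, 274, 287, 247 and 273 CPM in ibudilast rats. Of the ibudilast rats, 4 lay below all untreated rats, and ibudilast rat 3 lay among them. The means of 300 ± 19.1 and 261 ± 24.4 CPM (SD, n = 5) gave a log2 fold change of −0.20 (SE 0.08, 95% interval −0.38 to −0.01, adjusted p = 0.0729, edgeR's quasi-likelihood test). Its call turned on the setting: Nlgn2 was lower with DESeq2 (−0.22, adjusted p = 0.0184) and without untreated rat 3 (−0.23, adjusted p = 0.0457 by edgeR).

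The ratio of Nlgn1 to Nlgn2 within each library differed between the groups. Nlgn1 counts were 20.0, 15.7, 13.2, 18.7 and 17.0% of Nlgn2 counts in untreated rats and 8.96, 9.96, 9.10, 6.28 and 9.34% in ibudilast rats. All 5 ibudilast rats lay below all 5 untreated rats, with ibudilast rat 4 far below the rest. This ratio too was chosen with earlier results known, which its adjusted p does not account for. On the log2 scale the ratio was −2.58 ± 0.23 and −3.53 ± 0.26 (SD, n = 5), a difference of −0.96 (two-sided exact permutation test, p = 0.00794, the smallest that 5 against 5 rats allow, adjusted p = 0.0119 over 3 ratios).

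Nlgn1 was also lower relative to Nlgn3, by a smaller amount. Its counts were 47.1, 38.3, 36.8, 41.9 and 42.0% of Nlgn3 counts without and 30.2, 33.5, 32.9, 26.7 and 34.0% with ibudilast. These ranges did not overlap. The mean log2 ratio was −1.28 ± 0.14 and −1.67 ± 0.14 (SD, n = 5), a difference of −0.39 (two-sided exact permutation test, p = 0.00794, adjusted p = 0.0119 over 3 ratios).

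**Figure D2:**
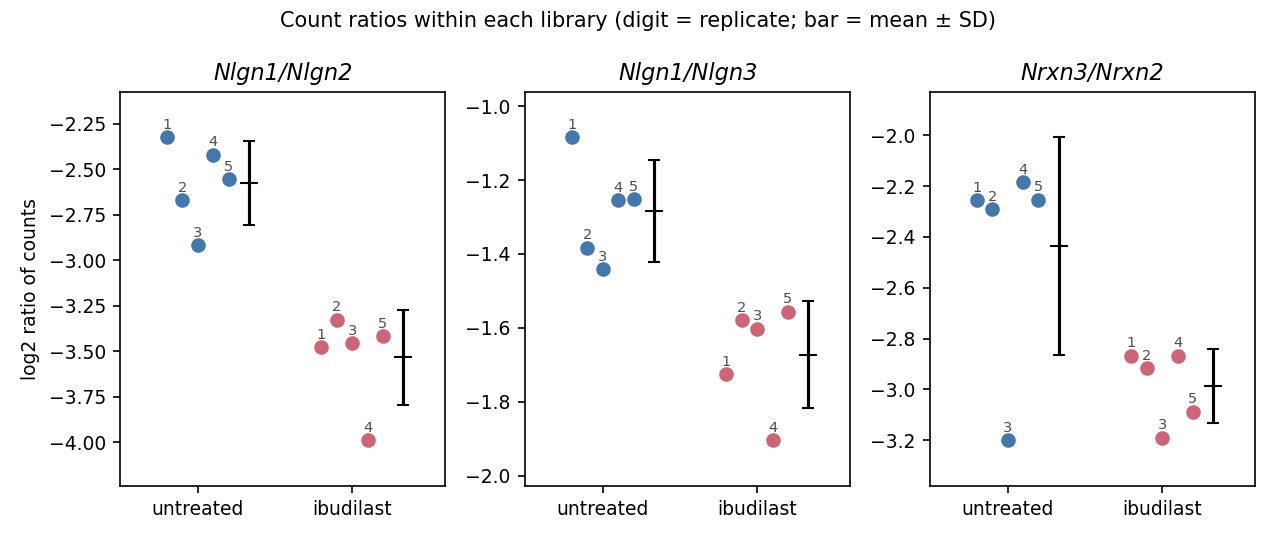
Log2 ratios of counts within each library for Nlgn1 to Nlgn2, Nlgn1 to Nlgn3 and Nrxn3 to Nrxn2, with 1 point per rat, numbered by replicate, and bars at group means ± SD. Both Nlgn1 ratios are lower in all 5 ibudilast rats than in any untreated rat, and for Nrxn3 to Nrxn2 untreated rat 3, at −3.20, lies below all ibudilast rats.

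Among the LRRTM genes, Lrrtm2 and Lrrtm4 fell, and Lrrtm1 and Lrrtm3 did not pass the test. Lrrtm4, whose protein is known from dentate granule cell synapses, was read at 30.0, 33.9, 17.8, 28.3 and 26.6 CPM in untreated rats and at 13.1, 14.1, 17.1, 10.3 and 14.8 CPM in ibudilast rats. The groups did not overlap, although untreated rat 3 at 17.8 and ibudilast rat 3 at 17.1 were close. Group means of 27.3 ± 5.96 and 13.9 ± 2.49 CPM (SD, n = 5) gave a log2 fold change of −0.98 (SE 0.18, 95% interval −1.37 to −0.59, adjusted p = 0.00122, edgeR's quasi-likelihood test).

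Lrrtm2, a high-affinity neurexin ligand of excitatory synapses, was at 68.9, 49.5, 32.5, 61.2 and 53.5 CPM without and 26.4, 32.1, 31.2, 26.5 and 32.9 CPM with ibudilast. Untreated rat 3, at 32.5, lay below ibudilast rat 5, at 32.9, and all other untreated rats lay above the ibudilast rats. The means of 53.1 ± 13.7 and 29.8 ± 3.16 CPM (SD, n = 5) differed by −0.83 on the log2 scale (SE 0.17, 95% interval −1.22 to −0.45, adjusted p = 0.00282, edgeR's quasi-likelihood test).

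Lrrtm1 stood at 119, 91.9, 51.5, 81.0 and 110 CPM in untreated rats and at 59.4, 71.0, 90.9, 60.9 and 85.3 CPM in ibudilast rats. The groups overlapped, and untreated rat 3 was the lowest of all 10. The log2 fold change was −0.30 (SE 0.21, 95% interval −0.77 to 0.17, adjusted p = 0.268, edgeR's quasi-likelihood test), from 90.7 ± 26.5 to 73.5 ± 14.2 CPM (SD, n = 5). Without untreated rat 3 it was −0.48 and passed (adjusted p = 0.0275, edgeR's quasi-likelihood test).

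Lrrtm3 showed the smallest difference of the 9 genes. It was at 35.9, 25.2, 42.1, 42.0 and 28.4 CPM in untreated and at 27.9, 38.0, 38.8, 30.1 and 32.4 CPM in ibudilast rats, and every ibudilast rat lay within the untreated range. The means were 34.7 ± 7.74 and 33.5 ± 4.80 CPM (SD, n = 5). The log2 fold change of −0.05 (SE 0.16, adjusted p = 0.816, edgeR's quasi-likelihood test) has a 95% interval of −0.40 to 0.30, and its sign depended on the setting, so that no direction is given.

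**Figure D3:**
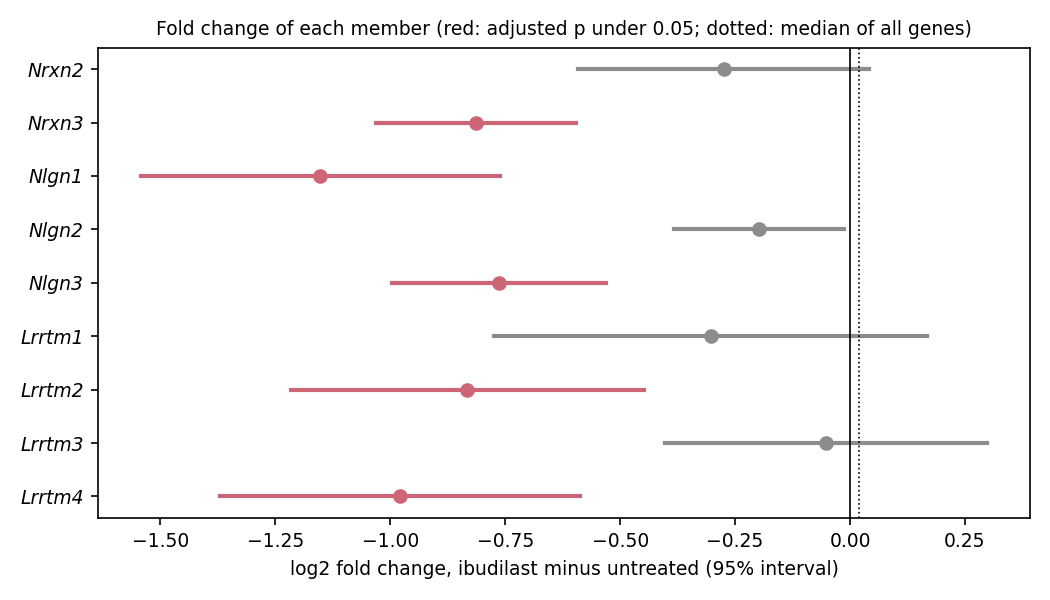
Log2 fold change of each of the 9 genes, ibudilast minus untreated, with 95% intervals from edgeR's quasi-likelihood fit; red points passed the test and the dotted line is the median of all tested genes. The intervals of Nrxn3, Nlgn1, Nlgn3, Lrrtm2 and Lrrtm4 lie below 0, that of Nlgn2 ends at −0.01 and those of Nrxn2, Lrrtm1 and Lrrtm3 span 0.

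Promoter windows from 250 bases before to 50 bases after the RefSeq start (GRCr8) were matched for 7 of the 9 genes. They were searched on both strands for the cAMP response element TGACGTCA, the site of the CREB family of factors that act downstream of cAMP, for its shorter form TGACG, and for the core of RE1, the site of the neuronal gene repressor REST. Every TGACGTCA also holds TGACG on both strands. TGACGTCA occurred in 525 of 27457 RefSeq rat promoters (1.91%), TGACG in 6030 (22.0%) and the RE1 core in 2 (0.00728%). Of the 7 members, Lrrtm2 held TGACGTCA and TGACG, and the other 6 held none of these letters. The stretch of Lrrtm2 from 90 to 61 bases before the start, chr18:27097028-27097057 on the minus strand, is shown because it carries these matches, which are in capitals.
Lrrtm2: aagacaCGTCActgggTGACGTCAgcctat
The full element spans bases −74 to −67 and a further TGACG lies on the opposite strand at −84 to −80. These are matches of letters, and binding was not measured. Of the 7 genes with a window, Lrrtm2, Nlgn1, Nlgn3 and Lrrtm4 fell, and the last 3 of these held no match.

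Several LRRTM genes lie inside other genes. In the GRCr8 annotation Lrrtm1 lies within Ctnna2, Lrrtm2 within Ctnna1 and Lrrtm3 within Ctnna3, genes of the alpha-catenins that join cadherins to actin. Both alpha-catenin genes tested fell: Ctnna2 was at 164 ± 14.9 without and 114 ± 15.2 CPM with ibudilast (log2 fold change −0.52, adjusted p = 0.00196) and Ctnna1 at 155 ± 19.05 and 116 ± 20.7 CPM (−0.43, adjusted p = 0.0204, edgeR's quasi-likelihood test, SD, n = 5). The call of Ctnna1 was lost without untreated rat 4 (adjusted p = 0.0506) and without ibudilast rat 5 (adjusted p = 0.0507), and with library size alone for scaling (adjusted p = 0.0822), by edgeR's quasi-likelihood test. Ctnna3 was not analysed here. Libraries were strand-specific, but whether the counting used strand was not given in the sources used here. Reads of overlapping genes may therefore be shared between LRRTM genes and their hosts. The expected counts of Lrrtm1 and Lrrtm2 were whole numbers in every rat. Those of Lrrtm3 were not whole in any rat, as with 596.99 in untreated rat 1. Whether reads were split between genes was not tested.

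The rats differed in how low or high they stood over the 9 genes. Untreated rat 1 was the highest of its group for 6 genes, and untreated rat 3 was the lowest for 6 and the highest for 2, Nrxn2 and Lrrtm3. Untreated rat 3 also held the lowest summed pan-neuronal (4963 CPM), excitatory neuron (4665 CPM) and oligodendrocyte (7956 CPM) markers of the untreated group, and the highest astrocyte (11073 CPM), microglia (1178 CPM), endothelial and mural (659 CPM) and oligodendrocyte precursor markers (631 CPM). The part of these marker levels in its values was not tested. Ibudilast rat 1 was the lowest of its group for 6 genes and ibudilast rat 4 for the other 3, Nlgn1, Nlgn3 and Lrrtm4. The summed CPM of the 9 genes ranged from 1205 to 1447 in untreated and from 873 to 1117 in ibudilast rats. Without untreated rat 3, 7 genes were lower, Lrrtm1 and Nlgn2 being added, and without each of the other rats in turn the same 5 were lower (edgeR's quasi-likelihood test).

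**Figure D4:**
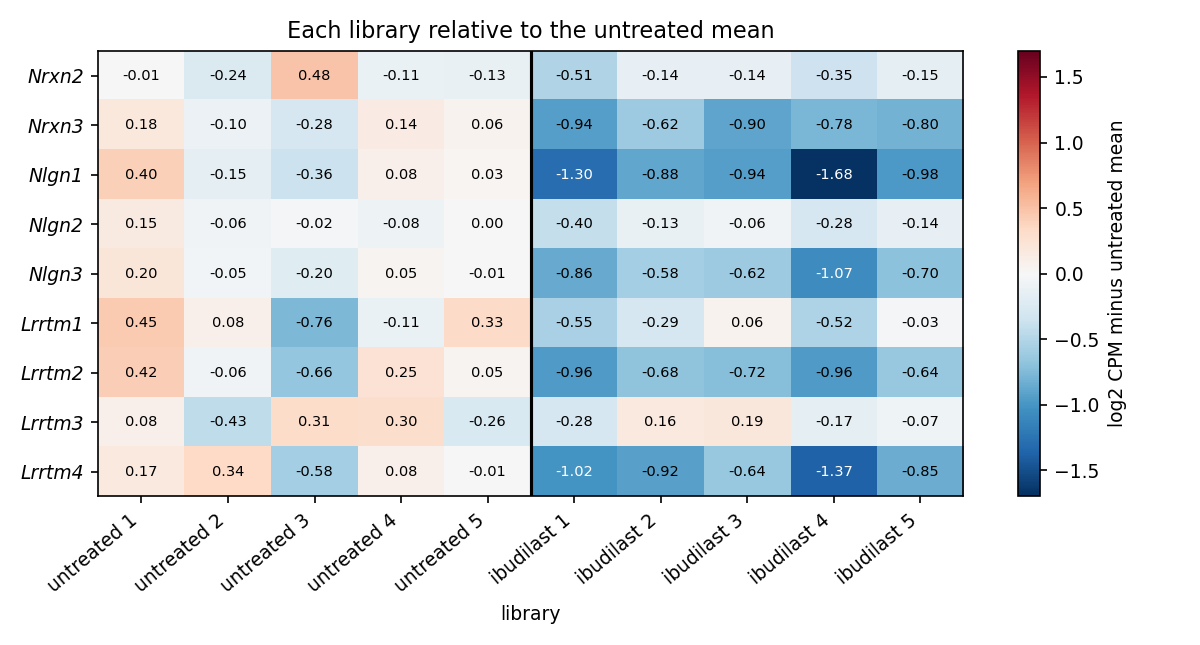
Log2 CPM of the 9 genes (rows) in each of the 10 rats (columns), minus the untreated mean of the gene; blue cells are below and red cells above that mean. Nrxn3, Nlgn1, Nlgn3, Lrrtm2 and Lrrtm4 part the groups most, and untreated rat 3 lies farthest from the untreated mean in Lrrtm1 (−0.76), Lrrtm2 (−0.66), Lrrtm4 (−0.58) and Nrxn2 (0.48).

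As a description, profiles over the 10 rats were compared by the root mean square difference of log2 CPM after each gene was centred on its own mean. The closest pair of the 9 was Nrxn3 and Nlgn3 (0.139), followed by Nrxn3 and Lrrtm2 (0.175) and by Nrxn2 and Nlgn2 (0.185), and the most distant pair was Nlgn1 and Lrrtm3 (0.642). Each member named next was compared with 11547 other genes that had a mean of at least 1 CPM. Placeholder symbols (LOC, RGD or MGC with a number) and symbols turned into dates were left out. Among these genes, Nrxn3 was nearest to Cltc (0.0816), the clathrin heavy chain gene. Next came Dnm1l (0.0834), of mitochondrial fission, and Pafah1b1 (0.0842), whose product works with dynein. Nlgn3 was nearest to Senp2 (0.0576), a SUMO protease gene, to Pcyox1 (0.0679) and to Atp6v1b2 (0.0756), a subunit of the vacuolar proton pump. Nlgn1 was nearest to the synaptic vesicle gene Syp (0.0918), to Dnajc6 (0.104), an auxilin of clathrin uncoating, and to Atl1 (0.105), which shapes the endoplasmic reticulum. Lrrtm4 was nearest to Plcxd2 (0.108), Rab2a (0.108), a trafficking GTPase, and Atp6v1a (0.121), another proton pump subunit. The median difference over all such genes was 0.511 for Nrxn3, 0.498 for Nlgn3, 0.695 for Nlgn1 and 0.617 for Lrrtm4, and all these profiles share the same 10 libraries and the same difference between groups.

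Other genes of the pathway were read from lists of its roles, beside 22.8% lower and 24.3% higher over all tested genes. Of 19 tested genes for neurexin ligands and bridging proteins, 7 fell, 0 rose and 12 did not pass, with a median log2 fold change of −0.38. Clstn3, a postsynaptic calsyntenin, was at 308 ± 41.3 without and 177 ± 27.3 CPM with ibudilast (log2 fold change −0.80, adjusted p = 0.000636, edgeR's quasi-likelihood test). Dag1, encoding the neurexin receptor dystroglycan, went from 210 ± 13.2 to 162 ± 7.92 CPM (−0.38, adjusted p = 0.00108, edgeR), and Nxph1, a secreted neurexophilin that binds alpha-neurexins, from 31.8 ± 7.53 to 18.8 ± 1.35 CPM (−0.76, adjusted p = 0.00272, edgeR, SD, n = 5). Without untreated rat 3, 4 genes of this list rose (C1ql1, Igsf21, Nxph3 and Nxph4, named after their values were seen).

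Of 36 tested genes of other synaptic adhesion families, 15 were lower, 1 was higher and 20 did not pass, with a median of −0.33. Cadm2, a cell adhesion molecule of the SynCAM family, was at 52.4 ± 8.08 without and 17.4 ± 3.99 CPM with ibudilast (log2 fold change −1.59, adjusted p = 6.32e-05), the largest fall among the pathway genes named here. Its relative Cadm1 went from 95.1 ± 18.9 to 41.5 ± 7.16 CPM (−1.20, adjusted p = 0.000219), and Lphn3, the latrophilin 3 gene, from 77.7 ± 9.66 to 47.5 ± 2.62 CPM (−0.71, adjusted p = 0.000141, edgeR's quasi-likelihood test, SD, n = 5). The gene that rose was Lrfn4, a SALM family member (log2 fold change 0.44, named after its value was seen).

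Inside the cell, 19 of 24 genes for scaffolds linked to neurexins or neuroligins, directly or through other scaffolds, fell, 1 rose and 4 did not pass, with a median of −0.69. Cask, a kinase-like scaffold that binds neurexin tails, was at 48.9 ± 7.83 without and 25.6 ± 2.72 CPM with ibudilast (log2 fold change −0.93, adjusted p = 0.000161). Magi2, a postsynaptic scaffold that binds neuroligins, went from 88.7 ± 5.31 to 51.5 ± 8.79 CPM (−0.78, adjusted p = 0.000401). Dlg2, a PSD-95 relative, went from 139 ± 39.7 to 50.2 ± 13.3 CPM (−1.47, adjusted p = 0.000568, all by edgeR's quasi-likelihood test, SD, n = 5).

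RNA-binding proteins that splice neurexin transcripts were lower for 6 of 9 tested genes, with 0 higher, 3 not passing and a median of −0.56. Rbfox2 was at 48.9 ± 4.27 without and 25.2 ± 2.70 CPM with ibudilast (log2 fold change −0.96, adjusted p = 3.47e-05), Khdrbs1, which encodes Sam68, from 134 ± 7.30 to 91.0 ± 5.54 CPM (−0.56, adjusted p = 8.98e-05), and Ptbp2 from 54.5 ± 9.11 to 30.0 ± 1.95 CPM (−0.86, adjusted p = 0.000195, edgeR's quasi-likelihood test, SD, n = 5). Without untreated rat 1 or without ibudilast rat 1, 3 genes of this list were lower.

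Proteases that release the outer parts of neurexins and neuroligins, and the gamma-secretase subunits that then process the stubs, went in both directions, with 4 of 9 lower, 2 higher, 3 not passing and a median of −0.17. Adam10, the main sheddase, was at 92.2 ± 6.16 without and 56.7 ± 6.58 CPM with ibudilast (log2 fold change −0.70, adjusted p = 0.000133). Aph1a, a gamma-secretase subunit, rose from 55.8 ± 3.17 to 66.8 ± 3.58 CPM (0.26, adjusted p = 0.00656, edgeR's quasi-likelihood test, SD, n = 5). The second gene that rose was Psenen, a further subunit. Without untreated rat 1, 3 or 4, or ibudilast rat 2, 3 or 5, 1 gene of this list was higher.

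**Figure D5:**
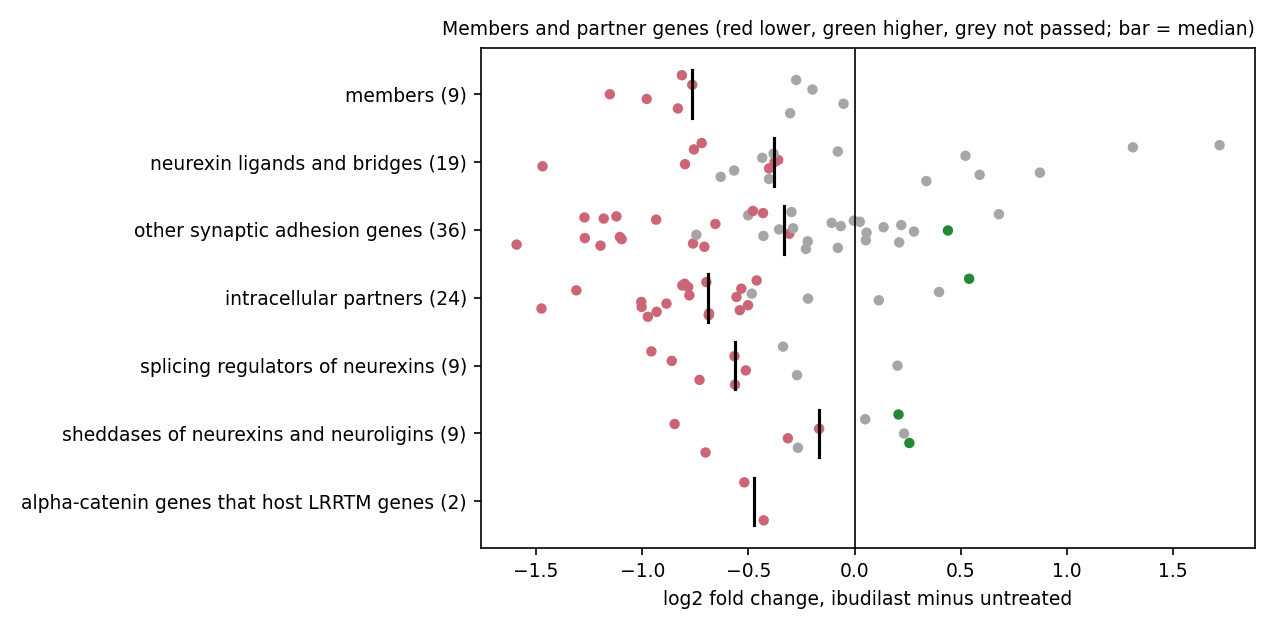
Log2 fold change, ibudilast minus untreated, of the 9 genes and of every tested gene of 6 pathway lists, with 1 point per gene, the number tested in parentheses and a bar at each median; red points fell, green points rose and grey points did not pass the test. Of 24 intracellular partners 19 are red, and the sheddase list holds 2 green points.

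The mean log2 CPM of the pan-neuronal markers in each library was added to the fit as a covariate. With it, 3 of the 9 genes were lower, beside 1900 lower and 2078 higher among all tested genes. The log2 fold changes were then −0.62 for Nlgn1 (adjusted p = 0.0189), −0.58 for Nrxn3 (adjusted p = 0.00756) and −0.47 for Nlgn3 (adjusted p = 0.00970), against −0.58 for Lrrtm4 (adjusted p = 0.0770) and −0.28 for Lrrtm2 (adjusted p = 0.249, edgeR's quasi-likelihood test). With oligodendrocyte markers as the covariate, all 5 stayed lower, from −0.82 for Nlgn3 to −1.25 for Nlgn1, beside 1763 lower and 1943 higher among all tested genes. Without a covariate 2813 were lower and 3004 higher. These markers also differ between the groups, so that a covariate can shrink or enlarge a difference that goes with the treatment. All 5 log2 fold changes were smaller in size with the pan-neuronal covariate than without one, and larger with the oligodendrocyte one. With the latter, Nrxn3 was at −1.04 against −0.81 without a covariate and Nlgn1 at −1.25 against −1.15. Nlgn3 was at −0.82 against −0.76, Lrrtm2 at −1.12 against −0.83 and Lrrtm4 at −1.09 against −0.98. Of the pathway genes named above, Nxph1, Ctnna2 and Aph1a lost their calls with either covariate, and Ctnna1 with the oligodendrocyte one.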

How the data were processed

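Left hippocampal RNA of 5 untreated and 5 ibudilast rats was measured in 1 strand-specific mRNA library per rat. Groups and replicate numbers came from the sample titles. The values used are the authors' deposited expected counts for each gene symbol, without normalization. Tools named in the submitters' processing notes, without their roles, are RSEM 1.2.15, Bowtie2 2.1.0, edgeR and bcl2fastq, with the build rn6. The annotation and filters are not given in the sources used here. A second deposited table of normalized values was not used.

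Of the values, 12.0% were not whole and were rounded. Library totals were 14806807 to 18533520 counts. Genes were tested with edgeR 4.0.16 (quasi-likelihood, robust, TMM factors, filterByExpr, R 4.3.3) and Benjamini-Hochberg adjustment over 12355 genes at a threshold of 0.05. The scripts were tested on simulated counts. CPM used TMM-scaled library sizes, and log2 CPM a prior count of 2. Ratios within libraries used counts plus 0.5 and a two-sided exact permutation test over 252 assignments.

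The members, gene lists and tests were chosen with earlier results of these data known. All 9 members are named, with the 3 genes of smallest p in each pathway list and the 3 nearest profiles of the 4 members with the smallest p. Values of a few genes chosen this way are left out of the text. Alternatives were DESeq2 1.42.0, upper-quartile, RLE or no factors, limma-voom (limma 3.58.1), edgeR's exact test, other filters, a replicate block, marker covariates, a ratio pseudocount of 5 and leaving out rats. The replicate numbers did not pair the rats. No 2 libraries of a group agreed within sampling noise (lowest chi-square per gene 11.5). Promoter letters came from RefSeq windows of GRCr8. The build that the notes name, rn6, is another, and no genome of it was used here.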

Additional observations from a re-analysis of the deposited data

Results flagged for a closer look

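In 24 sets of 5 values, the 9 genes and 3 ratios in each group, the gap of the highest or lowest rat to its nearest neighbour was set against the whole range, and chance alone exceeds the 95% limit of 0.71 in about 1 set in 20. It was exceeded 3 times. Nrxn2 in untreated rat 3 stood at 759 CPM, with a gap of 0.730 of the range of its group. The log2 ratio of Nrxn3 to Nrxn2 in the same rat was −3.20, with a gap of 0.895 of the range. The log2 ratio of Nlgn1 to Nlgn2 in ibudilast rat 4 was −3.99, with a gap of 0.771 of the range. Untreated rat 3 also held the lowest summed pan-neuronal (4963 CPM), excitatory neuron (4665 CPM) and oligodendrocyte markers (7956 CPM) of its group and the highest astrocyte (11073 CPM), microglia (1178 CPM), endothelial and mural (659 CPM) and oligodendrocyte precursor markers (631 CPM), and ibudilast rat 4 held the lowest excitatory neuron markers (1337 CPM). Their part in these values was not tested.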

How the results depend on the processing

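The 5 lower members stayed lower in 21 of 22 alternative fits. The exception was the pan-neuronal covariate, with 3 lower members, where Lrrtm2 (−0.28, adjusted p = 0.249) and Lrrtm4 (−0.58, adjusted p = 0.0770) lost their calls. The calls of Nlgn2 and Lrrtm1 were gained without untreated rat 3, and that of Nlgn2 with DESeq2 (−0.22). Signs turned only in members that did not pass: Lrrtm3 was 0.0171 with library size alone, 0.0386 with the oligodendrocyte covariate, 0.063 with the pan-neuronal covariate and 0.0415 without untreated rats 2 and 3 and ibudilast rats 1 and 4; Nrxn2 was 0.0359 with the oligodendrocyte covariate and Lrrtm1 0.41 with the pan-neuronal one. The cause of these changes was not tested. Leaving out each rat in turn gave −0.17 to 0.0065 for Lrrtm3, −0.48 to −0.19 for Lrrtm1, −0.24 to −0.15 for Nlgn2 and −0.74 to −0.49 for the ratio of Nrxn3 to Nrxn2.

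With upper-quartile factors, and equally with library size alone, 1 alpha-catenin gene was lower, and 2 intracellular partners, 1 ligand and 2 other adhesion genes were higher. DESeq2 gave 2 intracellular partners and 1 ligand higher, limma-voom 1 ligand higher, and edgeR's exact test 1 ligand and 1 sheddase higher. In these 5 settings the ligand was Nxph3. With no filter, and with a mean of at least 1 CPM, 1 ligand was higher, which was Cbln3. The oligodendrocyte covariate left 1943 genes higher and 1763 lower in all, with 0 alpha-catenins, 7 intracellular partners and 3 ligands lower and 0 sheddases higher. With the pan-neuronal covariate, 1 alpha-catenin, 11 intracellular partners, 3 ligands and 6 other adhesion genes were lower, and 3 other adhesion genes and 0 sheddases higher. Without the 4 rats named above, 3 intracellular partners, 5 ligands and 2 other adhesion genes were higher, and the ratio differences were −0.97, −0.38 and −0.83, each at the smallest adjusted p that 3 against 3 rats allow in an exact permutation test, 0.1. Leaving out each rat in turn gave 1 to 2 alpha-catenins lower, 1 to 2 intracellular partners, 0 to 4 ligands, 1 to 2 other adhesion genes and 1 to 2 sheddases higher, and 3 to 6 splicing regulators lower. The second intracellular partner appeared without untreated rat 5, ibudilast rat 1 or ibudilast rat 4, and without ibudilast rat 4 a second other adhesion gene and 1 ligand (Nxph3) were higher.

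Same-numbered rats did not deviate together (correlations −0.33 to 0.42, with 0 of 5 untreated rats closest to their own number). With a replicate block the same 5 members were lower, 2 intracellular partners and 1 sheddase were higher, and the paired ratio differences were −0.96, −0.39 and −0.55, with adjusted p of 0.0938, 0.0938 and 0.125 in an exact sign-flip permutation test whose smallest p is 0.0625. Of the 17 pathway genes that the naming rule took, 12 held their call in all 22 fits and 0 changed sign. Depth was similar across libraries, and counting error is largest for Lrrtm4, the member of fewest counts.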

Other observations

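The genes below, except Nxph1 and Nlgn2, lie outside the naming rule and were picked after their values were seen. Among ligands, the neurexophilin gene Nxph3 differed in the direction opposite to that of its relative Nxph1. Nxph3 went from 12.3 ± 8.19 to 30.5 ± 14.3 CPM (SD, n = 5), a log2 fold change of 1.31 that did not pass (adjusted p = 0.0510, edgeR's quasi-likelihood test). It was called higher with upper-quartile factors, library size alone, DESeq2, limma-voom and edgeR's exact test, and without untreated rat 3 or ibudilast rat 4. Nxph4 went from 3.02 ± 4.01 to 9.88 ± 11.4 CPM and did not pass either (adjusted p = 0.128, edgeR). The calsyntenin gene Clstn2 fell, with means of 108 ± 42.7 and 38.9 ± 14.3 CPM (log2 fold change −1.47, adjusted p = 0.0111, edgeR), and so did Clstn1, from 1409 ± 109 to 1066 ± 219 CPM (−0.40, adjusted p = 0.0405, edgeR). Of the SLITRK family, which binds presynaptic receptor phosphatases, Slitrk1, Slitrk2, Slitrk3 and Slitrk4 fell, with log2 fold changes from −0.93 (Slitrk1) to −1.27 (Slitrk3), while Slitrk5 (−0.50) and Slitrk6 (0.68) did not pass. Gephyrin (Gphn), the scaffold of inhibitory synapses that neuroligin 2 binds, fell, with means of 73.4 ± 9.90 and 49.9 ± 4.72 CPM (log2 fold change −0.56, adjusted p = 0.00161, edgeR). It belongs to the list of intracellular partners, of which 19 of 24 fell. Nlgn2, with a log2 fold change of −0.20, did not pass.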
